A study of Mus musculus with 26 samples.

Results

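The genes described here are 7 genes taken as a set under the label of AII amacrine cell genes. They are the gap junction gene Gjd2, the nuclear factor I genes Nfia, Nfib, Nfic and Nfix, the homeobox gene Prox1, and the phosphatase inhibitor gene Ppp1r17. The label does not hold for each gene in these cells, since Nfix shared 0 cells with the AII marker gene Dab1. They were taken by name, and they are 7 of the 18193 genes that the arrays measured, with 29 probe sets among them. Where a gene had several probe sets, the one whose mean log2 signal was highest stood for it, after signals under 200 had been raised to 200 (7.64 on the log2 scale). A signal of 1000 or more counted as detection. The deposited signals are on a linear scale on which the trimmed mean of each array is 500.

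The study profiled 26 amacrine cells of the mouse retina singly, on Affymetrix 430 2.0 arrays, to look for markers of amacrine cell classes. GFP reporters under the Ndrg4 promoter (pNdrg4) or the Synapsin promoter (pSynapsin) were electroporated at P0, in vivo or ex vivo, and GFP-positive cells were then picked by hand, so each cell passed through a promoter-based choice. The cDNA of each cell was amplified by 35 cycles of PCR. Each sample was 1 cell, and the labels tie the cells to no animal or culture. Each group therefore stands as 1 sample, differences are given with no p, SDs describe the spread over cells, and the number of arrays limits the precision.

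All groups carried 1 of the 2 reporters. After 4 days of retinal culture there were 1 pSynapsin cell labelled E19 (cell B1) and 2 pNdrg4 cells labelled P4 (A3 and B4). The label E19 lies before the P0 given for electroporation, and the labels do not settle this conflict, so no order in age is drawn from that cell. The P5 groups were 4 pSynapsin cells (E1 to E4) and 5 pNdrg4 cells (C1, C6, D3, D5 and D6) after 5 days of culture, and 10 pNdrg4 cells (A1, A2, A5 to A8 and B1 to B4) for which no culture was stated. The P8 groups, after 8 days of culture, were 2 pSynapsin cells (B3 and B4) and 2 pNdrg4 cells (A1 and A2). The amacrine lineage factor Pax6 was detected in each of the 26 cells, at signals of 2034 to 62673, and the starburst amacrine genes Chat, Slc18a3 and Slc5a7 in 0 cells. Between 1909 and 4180 genes were detected per cell.

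AII cells are narrow-field glycinergic amacrine cells that carry rod signals into the cone pathway. They form gap junctions with cone bipolar cells and with each other, and the connexin encoded by Gjd2 takes part in these junctions. Nuclear factor I proteins bind DNA as dimers at TTGGC motifs, and in the mouse retina Nfia, Nfib and Nfix act in late progenitors that give rise to Muller glia and bipolar cells. Prox1 is a homeodomain repressor found in horizontal cells, AII cells and some bipolar cells, and Ppp1r17 encodes a substrate of cGMP-dependent protein kinase that inhibits protein phosphatases when phosphorylated.

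Since 4 of the 7 genes encode nuclear factor I proteins, the promoters were read for the motif these proteins bind. RefSeq promoters (mouse build GRCm38.p6, 250 bases before to 50 after the annotated start) were at hand for 5 of the 7 genes, namely Gjd2, Nfia, Nfic, Nfix and Prox1, with 9 starts in all. The promoters of Gjd2 and Nfia are shown because these genes were the pair most often detected in the same cells, and 1 promoter of Nfix because it holds the motif in duplicate. Each reads 5′ to 3′ along the gene, and capitals mark TTGGC or its reverse complement GCCAA.
Gjd2 (chr2:114013570-114013869, minus strand): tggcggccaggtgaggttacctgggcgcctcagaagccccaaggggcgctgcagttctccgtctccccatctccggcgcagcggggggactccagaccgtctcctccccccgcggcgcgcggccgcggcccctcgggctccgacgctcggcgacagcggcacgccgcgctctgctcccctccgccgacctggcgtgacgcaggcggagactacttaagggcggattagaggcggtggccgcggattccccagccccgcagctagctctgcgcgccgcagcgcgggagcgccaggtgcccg
Nfia (chr4:97581693-97581992, plus strand): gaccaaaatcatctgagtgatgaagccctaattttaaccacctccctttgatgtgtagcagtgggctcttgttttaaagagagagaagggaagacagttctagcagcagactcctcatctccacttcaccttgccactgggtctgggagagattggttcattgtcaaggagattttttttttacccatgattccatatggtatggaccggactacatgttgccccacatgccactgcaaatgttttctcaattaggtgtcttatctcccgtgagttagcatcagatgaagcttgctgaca
Nfix (chr8:84772826-84773125, minus strand): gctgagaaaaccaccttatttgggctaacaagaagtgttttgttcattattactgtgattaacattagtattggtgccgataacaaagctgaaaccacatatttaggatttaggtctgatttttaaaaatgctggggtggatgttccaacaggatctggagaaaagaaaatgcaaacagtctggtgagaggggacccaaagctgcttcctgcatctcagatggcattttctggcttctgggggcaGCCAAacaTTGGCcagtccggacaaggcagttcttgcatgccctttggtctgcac
The Gjd2 promoter was rich in G and C (75% of bases, against a median of 52.7% over all promoters in the table), and that of Nfia was not (44.7%). Searched on both strands, the motif was in 3 of the 9 promoters, which are 3 of the 4 Nfix starts. The Nfix promoter shown holds GCCAA and TTGGC as neighbours, beginning at positions -5 and 3 when the annotated start is counted as 0, and the other matches began at -175 and 28. Over all 32851 promoters of the table, 46.7% held the motif at least once and 14.4% at least 2 times, so the motif is common in promoters at large. The spacing of a full nuclear factor I site, TTGGC and GCCAA with 5 bases between them, occurred in 12 of the 32851 promoters and in 0 of the 9. A match is a description of letters and not a binding site.

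Each of the 7 genes was detected in few cells, at high signals. Gjd2, Nfia and Nfib, the most frequent of them, were detected in 5, 6 and 4 of the 26 cells, and where they were detected their signals were mostly several times the detection level. Over all 18193 genes the median gene was detected in 1 cell, 8021 genes were detected in 0 cells, and 32.7% were detected in 5 or more. A gene below 1000 in a cell was not shown to be absent from it.

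Gjd2, which encodes the main neuronal gap junction protein, had signals of 34051 in P8 pNdrg4 cell A1, 22699.6 in P8 pSynapsin cell B4, 20698 in P5 pSynapsin cell E2, 18709 in P5 pNdrg4 cell B1 with no culture stated, and 6846 in cultured P5 pNdrg4 cell C6. These 5 cells made 19.2% of the total, with an exact Clopper-Pearson 95% interval of 6.55 to 39.4 that covers counting error only. P8 pSynapsin cell B3 lay just under the detection level at 937, and the remaining cells were far below it. The second Gjd2 probe set, 1423019_at, was detected in 0 cells and reached 663 in cell C6.

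Of the nuclear factor I genes, Nfia was detected in the most cells. Its signals were 25812 in P5 cell A5, 11546 in P5 cell B1 and 2346 in P5 cell A6, all with no culture stated, 10303 in P5 pSynapsin cell E2, 21331 in P8 pSynapsin cell B4 and 9585 in P8 pNdrg4 cell A1. No cell lay near the detection level, since the next highest signal was 267 in P8 pNdrg4 cell A2. The 6 cells made 23.1% of the total (interval 8.97 to 43.6).

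The Nfia probe sets did not move together. Of the 6, 5 were detected in at least 1 cell, and all detections fell within the same 6 cells. Cell A5 was detected on 1456087_at, 1438236_at (11775), 1446990_at (12395) and 1427733_a_at (1467), while P5 cell B1 and P8 cell A1 were detected on 1456087_at and on 1421163_a_at, at 14058 and 6085. On 1421163_a_at cell A5 was below the detection level, and no cell was detected on both 1421163_a_at and 1438236_at. With each cell's median over the probe sets of a gene in place of 1 probe set, Nfia was detected in 1 cell and Nfib in 0.

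Nfib was detected at 11693 in P5 cell B4 (no culture stated), 4703 in P5 pSynapsin cell E2, 4090.05 in P8 pSynapsin cell B4 and 1766 in cultured P5 pNdrg4 cell D6. The remaining 22 cells stayed at or below 113. Nfix was detected in 2 of these 4 cells and in no other cell, at 15127 in cell D6 and 9016 in P5 cell B4. Both Nfix cells were detected on 3 probe sets each, with 24535 and 17992 on 1436363_a_at and 13185 and 10005 on 1423493_a_at, and in the other cells Nfix reached at most 558 on the probe set used.

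Nfic, Prox1 and Ppp1r17 were found in 1 to 3 cells each. Nfic was detected at 4292 in P8 pSynapsin cell B4 and reached 564 in P5 cell A8 with no culture stated. Prox1 was detected at 5492 in P8 pNdrg4 cell A1 and at 3853 in cultured P5 pNdrg4 cell D6, which is 7.69% of cells (interval 0.946 to 25.1). Ppp1r17, measured by a single probe set, was detected at 15268 in P8 pNdrg4 cell A1, 14128 in P5 cell A8 (no culture stated) and 5109 in P8 pSynapsin cell B4, with 102 as the highest signal elsewhere.

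**Figure D1:**
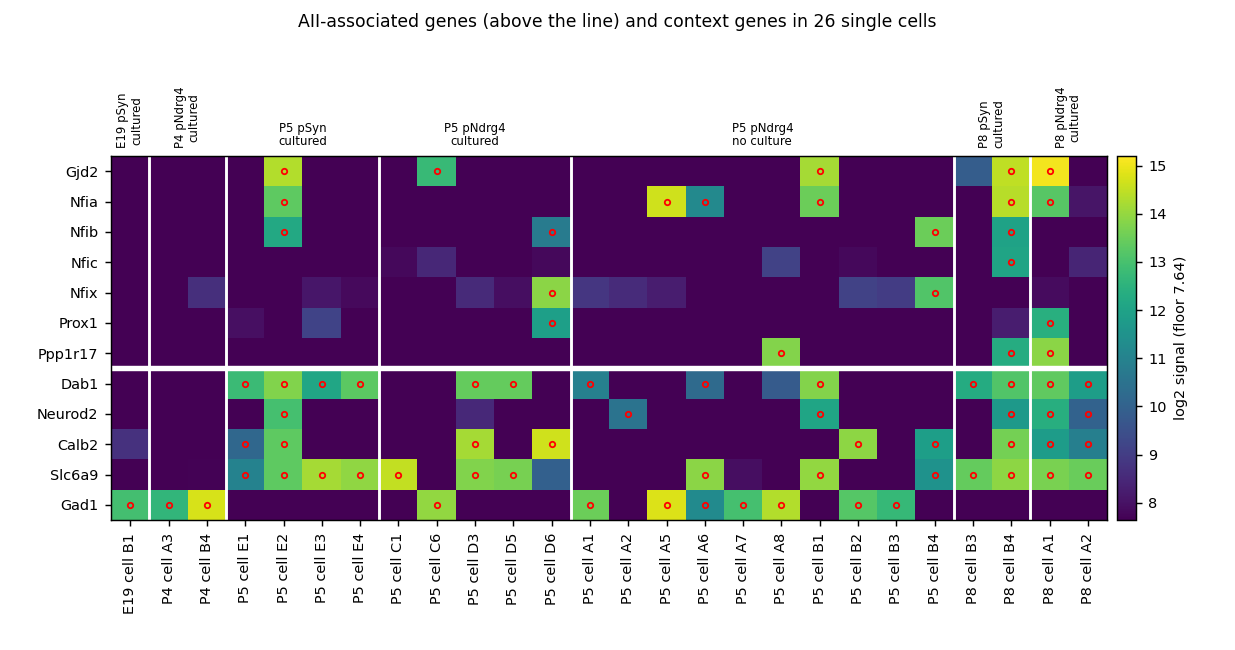
Log2 signal (colour, floored at 7.64) of the 7 genes above the white line and of 5 context genes below it, in 26 single cells ordered by group, with red circles where the signal is at least 1000. Gjd2 and Nfia share circles in P5 cells E2 and B1 and in P8 cells B4 and A1, and the E19 and P4 cells have none in the upper rows.

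**Figure D2:**
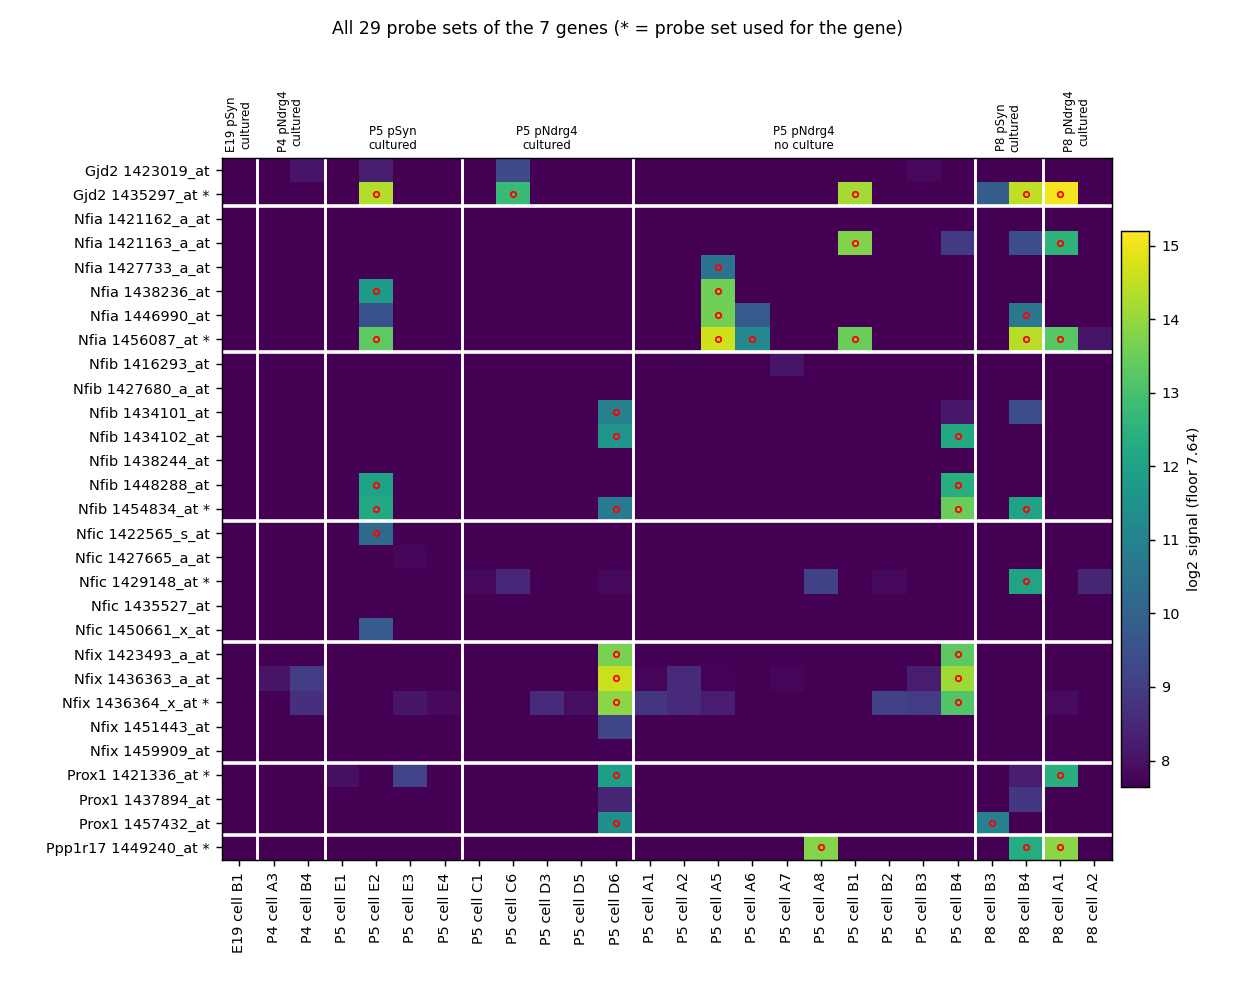
Log2 signal (colour, floored at 7.64) of each of the 29 probe sets in the 26 cells, with an asterisk on the probe set that represents the gene and red circles at signals of at least 1000. The Nfix circles lie in P5 cells D6 and B4 on 3 probe sets, and Prox1 in P8 cell B3 is circled on 1457432_at alone.

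The detections fell in 10 of the 26 cells. In the other 16 cells 0 of the 7 genes were detected, among them the E19 cell, both P4 cells, P8 pSynapsin cell B3 and P8 pNdrg4 cell A2. P8 pSynapsin cell B4 had 5 of them (Gjd2, Nfia, Nfib, Nfic and Ppp1r17), P8 pNdrg4 cell A1 had 4 (Gjd2, Nfia, Prox1 and Ppp1r17), P5 pSynapsin cell E2 had 3 (Gjd2, Nfia and Nfib) and cultured P5 pNdrg4 cell D6 had 3 (Nfib, Nfix and Prox1). P5 cell B1 had Gjd2 and Nfia, P5 cell B4 had Nfib and Nfix, and P5 cells C6, A5, A6 and A8 had 1 each.

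Gjd2 and Nfia shared 4 cells, with Gjd2 alone in cell C6 and Nfia alone in cells A5 and A6. Their log2 signals had a Pearson r of 0.71 over the 26 cells, the highest of the 21 pairs of the 7 genes, which ranged from -0.25 to 0.71, and a phi coefficient of detection of 0.66. With each cell left out in turn the r lay between 0.64 and 0.85. These correlations are descriptions over 26 cells, each on its own array, that share the amplification protocol and their groups. Nfib and Nfix had an r of 0.57, which lay between 0.30 and 0.70 with each cell left out in turn, and a phi of 0.68. Nfix shared 0 cells with Gjd2 (r of -0.25) and 0 with Nfia (r of -0.22). Nfix was detected in 2 cells only, and Gjd2 and Nfia in 19.2% and 23.1% of all cells. Sharing 0 cells is thus a common outcome, and no exclusion is shown. The r of 0.58 for Nfic and Ppp1r17 came with 1 shared cell, P8 pSynapsin cell B4.

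The cells with Gjd2 differed in transmitter genes. P8 cells A1 and B4 and P5 cells E2 and B1 had the glycine transporter gene Slc6a9 at 13182, 15332, 10323 and 16123 and the GABA-synthesis gene Gad1 at no more than 42.7. Cell C6 was the reverse for both genes, with Gad1 at 16150.0, Slc6a9 at 109, the adaptor gene Dab1 at 2.70 and 0 of the other genes of the set. Another GABA-synthesis gene, Gad2, was detected in cell C6 (8878) and also in P8 cell A1 (2898). In P8 cell B4 and P5 cells E2 and B1 Gad2 was at 11.3, 6.78 and 6.98. Of the cells with Nfia, A5 had Gad1 at 28786 and Slc6a9 at 173, and A6 had both, at 2471 and 15300.0. Outside the Slc6a9 cells, Gjd2 was thus found in 1 cell (C6) and Nfia in 1 cell (A5).

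Most genes of an AII list (7 genes, all measured) were detected in more cells than Gjd2. Dab1, a signalling adaptor that marks AII cells, was detected in 13 cells, the vesicular transporter gene Slc32a1 in 22, Slc6a9 in 14, the calcium channel gene Cacna1d in 11, the calcium-binding protein gene Calb2 in 9, the bHLH factor gene Neurod2 in 6, and the sodium channel gene Scn1a in 1 (P4 cell B4, at 4062). Of these, Neurod2 followed Gjd2 most closely (r of 0.81), and both were detected in P5 cells E2 and B1 and in P8 cells B4 and A1. Dab1 (0.47), Slc6a9 (0.35) and Calb2 (0.28) had lower r with Gjd2. Of the 13 Dab1 cells, 4 had Gjd2. P8 pNdrg4 cell A2 had 6 of the 7 AII list genes, as many as P5 cell E2 and P8 pNdrg4 cell A1, but 0 of the 7 genes described here.

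Calb2, detected in 9 of the 26 cells, went with Nfib and Nfix, and less with Nfic (r of 0.28). All 4 Nfib cells had Calb2 (r of 0.61), as did both Nfix cells and both Prox1 cells, and cell D6 had the highest Calb2 signal of the 26, 25859. Cell D6 had Slc6a9 just under the detection level at 989.9, Gad1 at 58.5 and Dab1 at 5.28. Another glycine transporter gene, Slc6a5, was detected in cell D6 at 1345. In this cell Prox1 was thus detected with Calb2 and without Dab1 or Gjd2, whereas in P8 pNdrg4 cell A1 it was detected with Gjd2, Nfia, Dab1 (10439) and Calb2 (3587). The horizontal cell genes Lhx1, Onecut1 and Calb1 were detected in 0 cells. Onecut2 was detected in 4 cells that had no Prox1, which was itself detected in 7.69% of all cells.

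Genes of other retinal cell types were detected in several of the same cells. Of 10 rod photoreceptor genes measured, P8 pSynapsin cell B4 had 7, P5 pSynapsin cell E2 had 6 and P8 pNdrg4 cell A1 had 5, but cell C6, with Gjd2, had 0 and P8 pNdrg4 cell A2, with none of the 7 genes, had 7. Over the 26 cells the number of rod genes had an r of 0.47 with Gjd2, 0.42 with Nfia and 0.52 with Nfib, and of 0.01 with Nfix. Without the 3 cells that had 6 or more rod genes, Gjd2 was left in 3 cells and Nfib in 2. P5 cell B4, with Nfib and Nfix, had 4 of 6 progenitor genes, including Mki67 at 19686 and Cdk1 at 3199, and 6 of 12 Muller glia genes, including Rlbp1 at 11844. The other Nfix cell, D6, had 0 progenitor genes and 2 Muller glia genes. The cells with Gjd2 or Nfia had 1 to 6 Muller glia genes, and the 16 cells with none of the 7 genes had 0 to 4. The number of Muller glia genes had an r of 0.39 with Gjd2, 0.37 with Nfia and 0.43 with Nfib, and that of bipolar genes an r of 0.50 with Nfib. Of the Muller list, Aqp4, Apoe, Kcnj10 and Hes1 were detected in 0 cells. The part of RNA from other cells in these detections was not tested.

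Partners were taken by rule as the genes whose log2 signals had the highest and lowest r with a gene detected in 4 to 22 cells, among 6675 other genes detected in at least 4 cells. Gjd2 was most like Qsox2, a sulfhydryl oxidase gene (r of 0.87), Neurod2 (0.81), the ubiquitin ligase gene Neurl1a (0.80), the transcription factor subunit gene Gtf2h4 (0.80) and the diacylglycerol kinase gene Dgke (0.77). Qsox2 was detected in 7 cells, which included all 5 Gjd2 cells, and its signals there spanned only 2732 to 2831. Neurl1a was detected in 4 cells, all of them Gjd2 cells. Nfia ranked as number 12 for Gjd2, and Dab1 as number 142.

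Least like Gjd2 were the actin-binding protein gene Tmsb10 (-0.64), the GTPase-activating protein gene Srgap3 (-0.58) and the neuronal tubulin gene Tubb3 (-0.56). Tubb3 was detected in 20 cells, of which 1 had Gjd2, and Tmsb10 was detected in all 26. Nfia was most like the cell surface receptor gene Sirpa (0.81), the phospholipid transfer protein gene Pltp (0.74), the actin regulator gene Eps8 (0.72), the potassium channel gene Kcnh2 (0.71) and Gjd2 (0.71), and least like the tropomyosin gene Tpm3 (-0.63), the isocitrate dehydrogenase subunit gene Idh3g (-0.63) and Tmem176b (-0.62).

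Nfib was most like the membrane glycoprotein gene Prom1 (0.85), the scaffold protein gene Dnmbp (0.84), the DNA repair gene Nbn (0.81), the calcium-binding protein gene S100a16 (0.76) and the actin-binding protein gene Cald1 (0.74), and least like the splicing factor gene Srsf6 (-0.57), the RNA-binding protein gene Pcbp3 (-0.56) and the growth cone protein gene Basp1 (-0.55). Nbn was detected in the same 4 cells as Nfib. Such values are common for rare genes. The best r of a gene detected in 5 cells had a median of 0.78 over 694 genes, and 91.8% of them had a lower best r than Gjd2; the share was 68.5% of 584 genes for Nfia and 84.1% of 719 for Nfib.

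**Figure D3:**
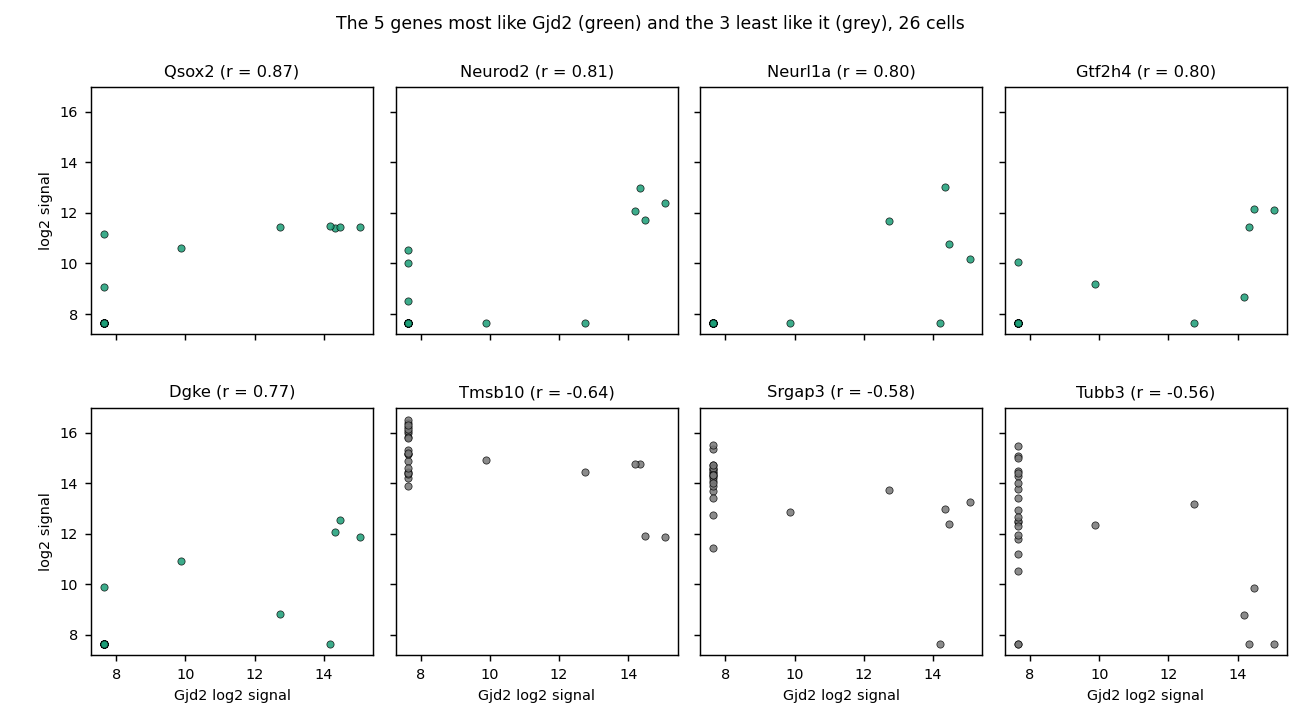
Log2 signal of the 5 genes most like Gjd2 (green) and the 3 least like it (grey) against the log2 signal of Gjd2, 1 point per cell, both axes floored at 7.64. Qsox2 lies at nearly the same height in all 5 cells with Gjd2, and most cells sit at the floor of both axes in the green panels.

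Gjd2 and Gjc1 were the only connexin genes detected among those measured. Of 13 other connexin genes measured, 12 were detected in 0 cells, and Gja1 came nearest with 909 in P4 cell B4. Gjc1 was detected in 6 cells (P4 cells A3 and B4, and P5 cells A1, A2, A6 and A7 with no culture stated), with its highest signal of 20259 in cell A6. Of these 6 cells 0 had Gjd2, which was detected in 19.2% of all cells, so no exclusion is shown. The pannexin gene Panx1, whose product forms large-pore channels, was detected in 8 cells, of which P5 cell B1, with no culture stated, had Gjd2.

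Of 10 genes for scaffolds and regulators of electrical synapses, 7 were detected in 10 or more cells. The scaffold gene Tjp1 was detected in 15 cells and Mpdz in 5, the calmodulin kinase genes Camk2b, Camk2d and Camk2g in 13, 10 and 12, the protein kinase A genes Prkaca and Prkacb in 21 and 19, and the anchoring protein gene Nbea in 19. The dopamine receptor gene Drd1 was detected in 1 cell, A8, at 5172. Camk2a was detected in 2 cells.

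Most genes for the phosphatases that Ppp1r17 inhibits were detected in nearly every cell. Of 7 genes for subunits of protein phosphatases PP1 and PP2A, Ppp1cc and Ppp2r1a were detected in 26 cells, Ppp1ca and Ppp1cb in 25 and Ppp2ca in 24, against 1 for Ppp2r1b and 0 for Ppp2cb. Of 14 other inhibitor genes of these enzymes, Set was detected in 26 cells, Anp32a in 22, Ppp1r1a, Ppp1r11 and Ppp1r14b in 14 each, Ppp1r8 and Ensa in 12, Arpp19 in 9, Ppp1r14c in 4 and Ppp1r2 in 2, and the remaining 4 in 0 cells. In the cGMP pathway, the soluble guanylate cyclase genes Gucy1a1 and Gucy1b1 were detected in 12 and 11 cells. The kinase gene Prkg1 was detected in 3 cells, and Prkg2 and the nitric oxide synthase gene Nos1 in 0. None of the 3 Prkg1 cells had Ppp1r17, which was detected in 11.5% of all cells, so no exclusion is shown.

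Genes of 2 written lists, 1 for Prox1 and 1 for nuclear factor I partners and gliogenic factors, were mostly seen in a minority of cells. Whether each listed gene acts with these proteins was not tested. For Prox1 these were the corepressor gene Hdac3 in 14 cells, the orphan nuclear receptor genes Nr2f2 in 7 and Nr2f1 in 6, and Kdm1a in 1, while the paralogue Prox2 and Nr5a2 were detected in 0. Of the Prox1 cells, D6 had Nr2f1 and Nr2f2, and P8 pNdrg4 cell A1 had 0 of the 6 genes. Of the second list, Zbtb20 and Ski were detected in 8 cells each, Id1 and Id3 in 3 each and Sox9 in 1, and Id2 and Atf3 in 0. Nfil3, which is not one of the nuclear factor I genes, was detected in 6. P5 cell B4, with Nfib and Nfix, had 4 of these 8 genes (Zbtb20, Id1, Id3 and Nfil3). The other cells with a nuclear factor I gene had 0 to 2 of them, with 1 in D6, which also had Nfib and Nfix, and 0 in P8 pSynapsin cell B4, which had Nfia, Nfib and Nfic. Cells with none of the 7 genes had some of them too, up to 3 in P5 cell A7.

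For culture, the 5 cultured and the 10 other P5 pNdrg4 cells, for which no culture is stated, were compared by the difference of their mean log2 signals, and 2 log2 units (4-fold) was the size called a difference. Of the 6 genes of the set detected in at least 2 cells, 0 were higher and 0 lower by that much, where 7.36% of 8570 genes were higher and 1.48% lower. Nfic, detected in 1 cell, was not in that table. The median number of genes detected per cell was 3256 in the cultured cells and 2361 in the others. The part of this in the differences was not tested.

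Nfia came nearest to the mark. Its signals were 5.64 at the lowest, 8.72 at the median and 18.2 at the highest in the 5 cultured cells, against 8.54, 28.2 and 25812 in the 10 cells with no culture stated. It was detected in 0 of 5 cultured cells and 3 of 10 others, and the groups overlapped at low signals. Mean log2 signals were 7.64 (at the floor in every cell) in cultured cells and 9.29 ± 2.77 (SD over 10 cells) in the others, a difference of -1.64 that the floor shortens, and -2.24 with a floor of 50. The Nfia difference was smaller with a floor of 500 (-1.24), with the median over the probe sets (-0.50), with group medians (0) and without cell A5 (-1.04). Mean log2 Gjd2 signals were 8.66 ± 2.28 in cultured cells and 8.30 ± 2.07 in the others, a difference of 0.36 with 1 cell detected in each, and of -0.65 without cultured cell C6 or 1.02 without cell B1. The other differences were 0.85 for Prox1, 0.39 for Nfix, 0.07 for Nfic, 0.04 for Nfib and -0.61 for Ppp1r17, each with at most 1 cell detected in a group. Without cultured cell D6 the Nfix difference was -0.80 and that of Nfib -0.59. The median of the 6 genes was 0.20, and that of all 8570 genes 0.31.

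Between reporters at P5, pSynapsin cells (4) were set against pNdrg4 cells (5), all cultured for 5 days. Again 0 of the 6 genes were higher and 0 lower by 2 log2 units, where 6.02% of all genes were higher and 4.25% lower. Gjd2 was detected in 1 cell of each group, at 20698 in pSynapsin cell E2 and 6846 in pNdrg4 cell C6, with means of 9.32 ± 3.35 in pSynapsin cells and 8.66 ± 2.28 in pNdrg4 cells and a difference of 0.65. Nfia was detected in 1 of 4 pSynapsin cells and 0 of 5 pNdrg4 cells (difference 1.42), and Nfix in 0 of 4 pSynapsin cells and 1 of 5 pNdrg4 cells (-1.32). The groups overlapped for each gene, and the differences rested on single cells. That of Gjd2 was -1.02 without cell E2 and 1.67 without cell C6, that of Nfib (0.51) was -0.63 without cell E2, and that of Prox1 (-0.40) was 0.45 without cell D6.

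At P8 there were 2 cells with each reporter, so differences were given with no reference to a threshold. Nfib was at 4090.05 and 14.2 in the pSynapsin cells and at 6.59 and 1.43 in the pNdrg4 cells, a difference of 2.18 on the floored log2 scale. Prox1 was at 306 and 36.1 in the pSynapsin cells and at 5492 and 1.02 in the pNdrg4 cells, a difference of -2.08 that became 0.31 without pNdrg4 cell A1. P8 pNdrg4 cell A1 for Prox1 and P8 pSynapsin cell B4 for Nfib each stood apart from the other cell of its reporter. Gjd2 differed by 0.82, Nfia by 0.37 and Ppp1r17 by -0.79, each with 1 of 2 cells detected on either side, and all 3 changed sign with 1 cell left out, with ranges of -2.88 to 4.53, -3.00 to 3.74 and -3.92 to 2.34. Nfic (1.83) was at -0.39 without pSynapsin cell B4.

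Age was compared as P8 minus P5 within each reporter, both cultured, and the 2 differences were averaged. Gjd2, Nfia and Ppp1r17 were higher at P8 by 2.77, 2.47 and 2.73 log2 units, so 3 of the 6 genes were past the threshold upwards and 0 downwards, where 3.82% of 8570 genes were higher and 1.67% lower. Ppp1r17 was detected only in P8 cells B4 and A1 and in P5 cell A8, which lies outside this comparison. It thus met the filter of at least 2 cells through the P8 cells where it is high, and its place in the count is not independent of the comparison. The median difference of the 6 genes was 1.58, and that of all genes 0.05.

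Gjd2 was at 22699.6 and 937 in P8 pSynapsin cells, against 20698 in cell E2 and less than 200 in the other P5 pSynapsin cells, and the difference of means was 2.85. With pNdrg4 it was at 34051 and 31.1 at P8, against a highest signal of 6846 and a median of 43.7 at P5, a difference of 2.69. Ppp1r17 was at 5109 and 1.47 in P8 pSynapsin cells and 15268 and 15.5 in P8 pNdrg4 cells, against highest signals of 73.1 and 65.8 in the P5 pSynapsin and pNdrg4 cells. Nfia was at 21331 and 41.0 in P8 pSynapsin cells, against a highest signal of 10303 at P5, and at 9585 and 267 in P8 pNdrg4 cells, against a highest signal of 18.2 at P5. The P8 and P5 cells overlapped for Gjd2 and Ppp1r17 with both reporters and for Nfia with pSynapsin. For Nfia with pNdrg4, the lower P8 signal (267) and the highest P5 signal (18.2) were both far below the detection level. For all 3 genes and both reporters 1 of the 2 P8 cells was detected.

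The age differences rested on 2 cells. Without P8 pSynapsin cell B4 they were 1.62 for Gjd2, 0.79 for Nfia and 1.56 for Ppp1r17, and without P8 pNdrg4 cell A1 they were 0.92, 1.18 and 1.17, so that 0 of the 6 genes stayed past 2 log2 units in either case. The other 4 genes had average differences of 1.18 (Nfic), 0.70 (Prox1), 0.20 (Nfib) and -0.77 (Nfix), and Nfic at P8 was detected in cell B4 alone. Without cell B4 those of Nfic and Nfib were 0.08 and -0.88, and without cell A1 that of Prox1 was -0.50. P8 cells also had 2 to 7 rod genes, against 1 to 6 in P5 pSynapsin cells and 0 to 1 in cultured P5 pNdrg4 cells. Without the 3 cells that had 6 or more rod genes the age differences were 4.31 for Gjd2, 2.79 for Nfia and 3.13 for Ppp1r17. Each P8 group then held 1 cell (B3 or A1), and of these A1 alone was detected for the 3 genes. The number of days in culture (8 and 5) ran with age, so age and days in culture cannot be told apart.

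Set in order over all 7 groups, mean log2 Gjd2 signals were 12.17 ± 3.25 in P8 pSynapsin cells, 11.35 ± 5.24 in P8 pNdrg4 cells, 9.32 ± 3.35 in P5 pSynapsin cells, 8.66 ± 2.28 in cultured P5 pNdrg4 cells, 8.30 ± 2.07 in the P5 pNdrg4 cells lacking a stated culture, and 7.64, the floor, in the P4 and E19 cells (SD over 2, 2, 4, 5 and 10 cells). Each gap between neighbours was smaller than the larger of the 2 SDs beside it. For Nfia the order was P8 pSynapsin (11.01 ± 4.76), P8 pNdrg4 (10.64 ± 3.65), P5 pNdrg4 with no culture stated (9.29 ± 2.77), P5 pSynapsin (9.07 ± 2.84), and the floor in cultured P5 pNdrg4, P4 and E19 cells. Neighbours again lay within their SDs.

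**Figure D4:**
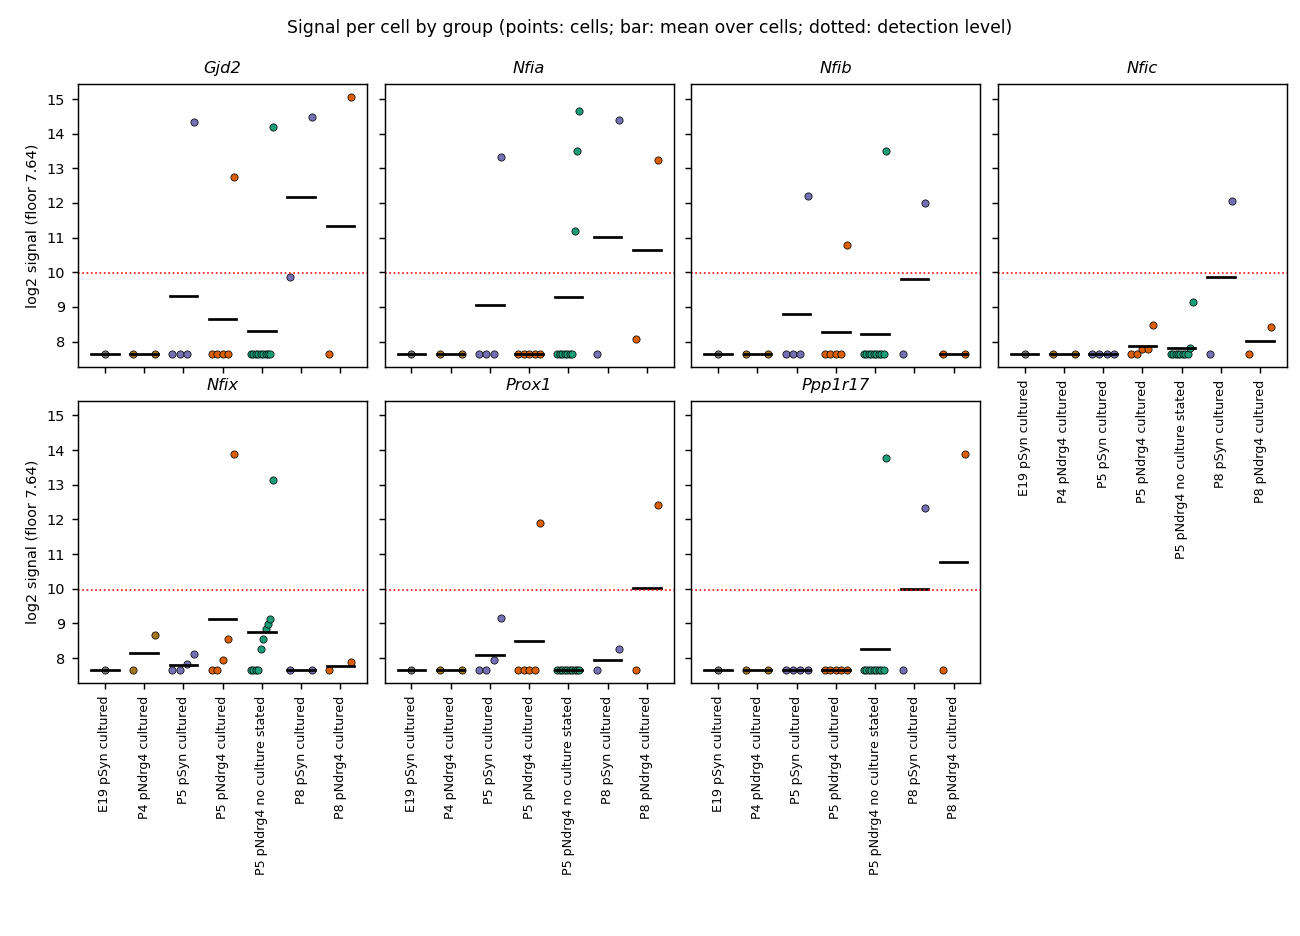
Log2 signal per cell (points, floored at 7.64) of the 7 genes in the 7 groups, with a black bar at the mean over cells and a red dotted line at the detection level of 1000. At most 1 cell per group lies above the dotted line, except for Nfia in P5 pNdrg4 cells with no culture stated, where there are 3.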

How the data were processed

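Cells were picked singly and their cDNA amplified by 35 PCR cycles, per the labels' protocols. The authors deposited intensity as a linear signal for each probe set. The submitters' processing notes name MAS5, with its version not given in the sources used here. The 2% trimmed mean is 500 on every array. They were not scaled again. The 7 genes and all gene lists (19 lists, 148 genes, 129 measured) were chosen with earlier results of these data known. Gene names came from the platform annotation, and 0 columns of the table were left unused.

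Signals under 200 were raised to 200 before log2, and detection was set at 1000. Differences were taken between group means of log2 signals over 8570 genes detected in at least 2 cells, with 2 log2 units called a difference. The labels name no animal or culture, so no test was run. Shares have exact Clopper-Pearson 95% intervals. Partners were the 5 genes with the highest and 3 with the lowest Pearson r among genes detected in at least 4 cells; list genes were named from 3 cells upward or where a defining gene was not detected, and other named genes and cells were chosen after their values were seen. Clone-type symbols were not named. Alternatives changed the floor, the detection level, the probe set rule, the scaling, the detection filter and the cells included. The code was tested on the measured signals, shuffled over the cells within each gene, with planted shifts and a planted partner. The tools were matplotlib 3.10.9, scipy 1.17.1, pandas 2.3.3 and numpy 2.4.6 under Python 3.11.15.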

Additional observations from a re-analysis of the deposited data

Results flagged for a closer look

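In groups of 4 to 10 cells, 16 sets of values of 1 gene in 1 group had any spread above the floor, and sets wholly at the floor were left out. In 13 of the 16 a cell lay far from the others, measured by its gap to the nearest cell over the whole range of the group. Such a gap arises in about 1 of 20 groups of normally spread values, but that rate does not apply to these floored values. Most of these genes were at the floor in all other cells of the group, and there any 1 cell above the floor has a gap equal to the whole range. For Gjd2 the cells that stood apart were P5 pSynapsin cell E2 (20698), cultured P5 pNdrg4 cell C6 (6846) and P5 cell B1 with no culture stated (18709). Cell E2 also stood apart for Nfia (10303) and Nfib (4703). Cultured P5 pNdrg4 cell D6 stood apart for Nfib (1766), Nfix (15127) and Prox1 (3853), and P5 cell B4 with no culture stated for Nfib (11693) and Nfix (9016). P5 cell A8 with no culture stated stood apart for Ppp1r17 (14128) and, below the detection level, for Nfic (564), as did cell C6 for Nfic (360.25).

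On probe sets that did not represent their gene, 2 signals reached the detection level in a cell where the probe set used did not. Nfic probe set 1422565_s_at read 1233 in P5 pSynapsin cell E2, where the probe set used read 62.8. Prox1 probe set 1457432_at read 2007 in P8 pSynapsin cell B3, where the probe set used read 36.1.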

How the results depend on the processing

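Detection counts moved most with the rule for probe sets. With each cell's median over the probe sets of a gene, Nfia was detected in 1 cell, Nfib in 0, Nfic in 0, Prox1 in 1, and 0 cells had 3 or more of the 7 genes, against 4 as reported. With any probe set, Nfic was in 2 cells. Detection at 500 gave Nfic 2 and Nfix 4 cells, as did quantile normalization. In alternatives added after seeing the data, leaving out the 3 cells with 6 or more rod genes left Gjd2 in 3 cells, Nfib in 2, Nfic in 0 and 2 cells with 3 or more genes, and leaving out P5 cell B4, with most progenitor genes, left Nfix in 1. In the culture comparison a floor of 50 put 1 gene, Nfia (-2.24), past 2 log2 units, while the median over the probe sets put Nfia at -0.50. Genes past 2 log2 units numbered 758, 880 and 470 for culture, reporter and age, against 1703, 1854 and 1341 with a floor of 50 and 249, 323 and 108 with a floor of 500. The Prox1 difference between reporters at P8 turned to 0.31 with the median over probe sets, and with 1 cell left out lay between -4.47 and 0.31. Of the 6 genes in the all-gene table, 0 to 3 were past 2 log2 units for age with 1 cell left out, and Nfic, outside that table, was at 2.29 without P8 pSynapsin cell B3. Of 182 differences recomputed under settings other than leaving out a single cell, 16 changed sign, and of 287 with a single cell left out, 26 did. No paired analysis was possible because the cell names that groups share, such as A1, only name cells and no test was run. The number of arrays and the floor limit what low signals can show. The cause of these changes was not tested.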
